A study of Homo sapiens with 7 samples.

Results

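The regions described here are 2524 stretches of DNA inside the bodies of protein-coding genes at which MYC was found in both MYC libraries of the series. They were chosen by position alone. Peaks of the 2 MYC lists were merged where they shared 1 bp or more, and a region was kept when both lists had a peak in it, when its centre lay inside the annotated span of a protein-coding gene, and when that centre was more than 1000 bp from every end of such a gene. They are 2524 of 6313 reproducible MYC regions, a share of 39.98% (exact Clopper-Pearson 95% interval 38.8 to 41.2%, counting error only). The other 1756 regions lay within 1000 bp of a gene end and 2033 lay outside genes. The number rests on the peak lists: 1452 were counted at 8-fold or more over background in both lists, and the list of replicate 2 alone gave 8867, with shares of 41.0% and 39.35%.

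All cells were DLD-1, an established human colon adenocarcinoma line, infected with a retrovirus that expresses MycER, in which MYC is joined to a hormone-binding domain of the estrogen receptor, so that 4-hydroxytamoxifen switches it on. Chromatin immunoprecipitation followed by sequencing (ChIP-seq), which reads the DNA that comes down with an antibody, was done in 4 groups. MYC was profiled in 2 samples after 8 hr with 500 nM 4-hydroxytamoxifen, ATF4 in 2 samples treated the same way and in 2 control samples, for which the labels name a vehicle, and 1 sample was an IgG immunoprecipitation that has no peak list in these results. Controls and activated cells alike carried MycER, no group had the inducer without MycER, and no MYC list of control cells was used here. The labels do not say whether the infected cells were 1 clone or many, whether the MYC antibody separates MycER from the cells' own MYC, or whether replicates were separate cultures. P-values below therefore rest on a spread between libraries that may be technical alone.

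MYC binds DNA as a pair with MAX, most tightly at the palindrome CACGTG, the canonical E-box. It is best known for binding at the starts of growth genes, among them genes of ribosome production, nucleotide synthesis and amino acid uptake, and at high levels it is also found at enhancers, many of which lie in introns. In colon cancer cells it stands downstream of the Wnt pathway.

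The values are normalized tag counts, which are sequenced fragments per 10 M (M for mega) of a library and are called tags here. The MYC libraries held an estimated 21.04 M tags in replicate 1 and 50.11 M in replicate 2, with 8636 and 22532 peaks, and the 4 ATF4 libraries held 22.4 to 50.3 M tags with 916 to 2231 peaks. These depths are estimates from the steps between the listed values, and whole tag counts, which gave the same depth, were at hand for replicate 1 alone. The lowest tags listed were 3.8 in MYC replicate 1 and 2.39 in replicate 2. Of 8 markers of intestinal epithelium only KRT8 held a MYC region inside its body and 1 had a region at an end. Neuron, fibroblast and blood cell marker lists of 18 genes each had 1, 2 and 0 genes with a region inside. A peak list does not measure expression, so the labelled cell type could not be checked by it.

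Sequence could be read at 81 annotated starts that lie inside a gene body and whose 300-base window, 250 bases before to 50 after the start, covers the centre of an in-gene MYC region. These 81 windows belong to 77 regions. The 250 bases before 4 of these starts are printed 5′ to 3′ from RefSeq (GRCh38.p14), to show inner starts at MYC regions with and without the E-box, which stands in capitals. CYTH1, TSPAN4 and SLC7A8 have 1 E-box each, and the centre of the MYC region lies 49, 93 and 159 bp before the start. RUVBL1 has none in its whole 300-base window, and the centre of its region lies 34 bp after the start, so the printed stretch holds only the part of that region before the start. The window too leaves part of the RUVBL1 region unread.
CYTH1, chr17:78717036-78717285, minus strand: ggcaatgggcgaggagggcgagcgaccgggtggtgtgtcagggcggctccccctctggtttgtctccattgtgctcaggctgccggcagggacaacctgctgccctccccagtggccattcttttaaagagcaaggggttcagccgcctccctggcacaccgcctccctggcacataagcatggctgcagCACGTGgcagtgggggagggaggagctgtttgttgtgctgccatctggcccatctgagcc
TSPAN4, chr11:843855-844104, plus strand: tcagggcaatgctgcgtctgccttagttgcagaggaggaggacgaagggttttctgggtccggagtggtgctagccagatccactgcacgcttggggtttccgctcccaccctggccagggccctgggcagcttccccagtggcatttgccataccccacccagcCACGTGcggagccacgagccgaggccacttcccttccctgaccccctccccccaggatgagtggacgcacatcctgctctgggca
SLC7A8, chr14:23154394-23154643, minus strand: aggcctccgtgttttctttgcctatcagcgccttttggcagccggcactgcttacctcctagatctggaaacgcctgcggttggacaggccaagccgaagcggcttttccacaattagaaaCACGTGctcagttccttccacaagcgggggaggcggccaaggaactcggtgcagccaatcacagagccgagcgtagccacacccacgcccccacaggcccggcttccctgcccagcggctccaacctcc
RUVBL1, chr3:128123813-128124062, minus strand: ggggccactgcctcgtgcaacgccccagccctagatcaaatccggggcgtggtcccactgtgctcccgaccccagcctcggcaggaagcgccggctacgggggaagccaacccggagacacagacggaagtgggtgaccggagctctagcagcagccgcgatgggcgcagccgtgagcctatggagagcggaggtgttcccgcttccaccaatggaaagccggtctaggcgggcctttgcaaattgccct

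The letters CACGTG, which read the same on both strands, were present in 25 of the 81 windows, a share of 30.9% (exact interval 21.1 to 42.1%). Of the 8129 windows of starts inside genes that covered no MYC region centre, 442 held the letters, a share of 5.44% (4.95 to 5.95%), and the intervals did not overlap. All 34913 annotated windows gave 7.23%. At gene ends the share was 29.1% (25.3 to 33.2%) of 525 windows under a MYC region and 8.30% of 18833 without one, so that windows under MYC regions inside genes and at gene ends did not differ beyond their intervals. Base composition differed between the windows, with a median of 61.3% G and C under in-gene MYC regions and 54% in windows without one. Among windows with at least 60% G and C the shares were 33.3% (20.4 to 48.4%) of 48 and 7.92% of 2840, and below that 27.3% (13.3 to 45.5%) of 33 and 4.10% of 5289. The windows are sites of 1 cell line and not replicates, and a match is a description of letters, not of binding.

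**Figure D1:**
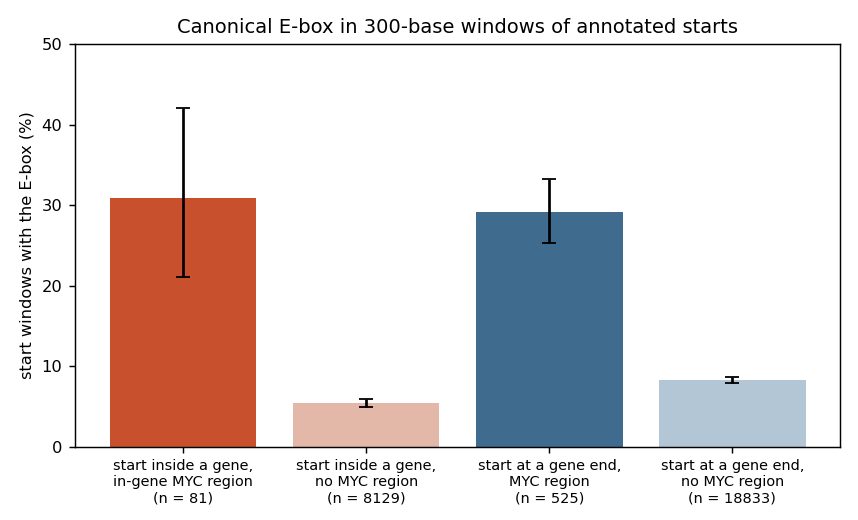
Share of 300-base windows of annotated transcription starts that hold the canonical E-box, in percent, for starts inside gene bodies and at gene ends, with and without the centre of a MYC region in the window. Bars are shares with exact 95% intervals, and both classes with a MYC region stand at 29.1 to 30.9% against 5.44 and 8.30% without one.

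The matches lay close to the centres of the regions. The windows held 26 matches, of which 17 lay within 50 bp of the region's centre, with a median distance of 29.5 bp. An E-box in the windows of both TAF12 and TAF12-DT is counted for each. At CYTH1, an exchange factor for ARF GTPases, the E-box lay 8.5 bp from the centre of a region with 32.3 tags in replicate 1 and 45.7 in replicate 2. At TSPAN4, a tetraspanin membrane protein, it lay 10.5 bp from the centre (15.7 and 26.7 tags), and at SLC7A8, a carrier of neutral amino acids, 32.5 bp (11.9 and 16.4 tags). RUVBL1, an ATPase that is a partner of MYC in chromatin complexes, had 12.4 and 23.7 tags without an E-box in the window of this start. That window does not cover the whole region, so an E-box in the rest of it was not looked for. Stretches of up to 60 bases around the E-box of 7 other regions are printed to show how the flanking bases vary, with the E-box in capitals. LOC124904068 is a noncoding RNA whose start lies inside TIMP2, an inhibitor of metalloproteases, LOC112267936 one inside LARP1, an RNA-binding regulator of translation, HEIH one inside ZFP62 and POLR2F-AS1 one inside POLR2F, a subunit of RNA polymerases, whereas CLUAP1, GRAMD2B and KDM4C are starts of the host gene itself.
LOC124904068, chr17:78862142-78862201, plus strand: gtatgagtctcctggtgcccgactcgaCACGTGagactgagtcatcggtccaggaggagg
CLUAP1, chr16:3500887-3500946, plus strand: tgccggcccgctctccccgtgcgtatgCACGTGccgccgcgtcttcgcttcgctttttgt
LOC112267936, chr5:154755073-154755132, minus strand: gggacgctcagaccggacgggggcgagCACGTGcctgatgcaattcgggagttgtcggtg
GRAMD2B, chr5:126465037-126465096, plus strand: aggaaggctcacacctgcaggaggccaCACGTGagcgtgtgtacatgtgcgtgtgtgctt
HEIH, chr5:180831754-180831813, minus strand: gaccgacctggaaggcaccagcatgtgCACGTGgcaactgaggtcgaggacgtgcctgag
POLR2F-AS1, chr22:38034367-38034426, minus strand: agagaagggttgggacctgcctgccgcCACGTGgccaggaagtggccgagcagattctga
KDM4C, chr9:6757883-6757942, plus strand: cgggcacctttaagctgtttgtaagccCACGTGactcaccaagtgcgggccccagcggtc

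The E-box was 47.5 bp from the region's centre at LOC124904068, 13.5 bp at CLUAP1, 8.5 bp at GRAMD2B, 10 bp at HEIH and 2 bp at POLR2F-AS1. It was farther away at LOC112267936 (131.5 bp) and KDM4C (114 bp), where it lay outside the merged region. These 7 regions had 4.75 to 12.8 tags in replicate 1 and 10.4 to 27.3 in replicate 2. Only KDM4C was below the in-gene median of replicate 1, which was 6.18 tags. A weaker region that is not printed, at TAF12 (4.28 and 7.58 tags), had an E-box 53.5 bp from its centre.

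Such starts account for a small part of the in-gene regions. Of the 2524 regions, 291 (11.5%) lay within 1000 bp of an annotated start inside a gene, 230 near a start of the host gene itself, 89 near the start of a long noncoding RNA and 28 near both. The remaining 2233 had no annotated start within that distance. Tags did not separate the 2 kinds, with medians of 6.18 in replicate 1 for both and of 9.98 near starts and 8.78 away from them in replicate 2. Read from the side of the starts, 81 of 8212 starts inside genes (0.986%) had a MYC region centre in their window.

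The level of MYC at the in-gene regions was close to that elsewhere. In replicate 1 the median was 6.18 tags, with the middle 50% of regions between 5.23 and 8.08 and a range of 3.8 to 36.1. In replicate 2 the median was 8.78 tags, the middle 50% 6.39 to 12.6 and the range 2.79 to 53.1. Regions at gene ends had medians of 6.18 and 9.78 tags and regions outside genes 6.18 and 8.38. On the log2 scale the in-gene median minus the gene-end median was 0 in replicate 1 and -0.16 in replicate 2, a mean of -0.078 ± 0.11 (SD, n = 2). An SD of 2 values cannot decide whether the classes differ. At gene ends the middle 50% was 5.23 to 8.08 tags in replicate 1, the same as inside genes, and 6.99 to 14.2 in replicate 2. Over the background library the median fold, as the authors' lists give it, was 10.3 in replicate 1 and 12.4 in replicate 2, and 1 and 4 regions were under 2-fold.

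Density per length of DNA differed between the classes. Gene bodies more than 1000 bp from any gene end cover 1220.5 Mb and held 2.07 reproducible MYC regions per Mb. The 72.25 Mb within 1000 bp of gene ends held 24.3 per Mb. The in-gene regions lay at a median of 18986 bp from the nearest gene end, with the middle 50% between 6100.9 and 47074 bp. The nearest 228 (9.03%) lay within 2000 bp of an end, and 597 (23.7%) lay more than 50000 bp away. The annotation used gives spans without exons, so intron and exon were not told apart.

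**Figure D2:**
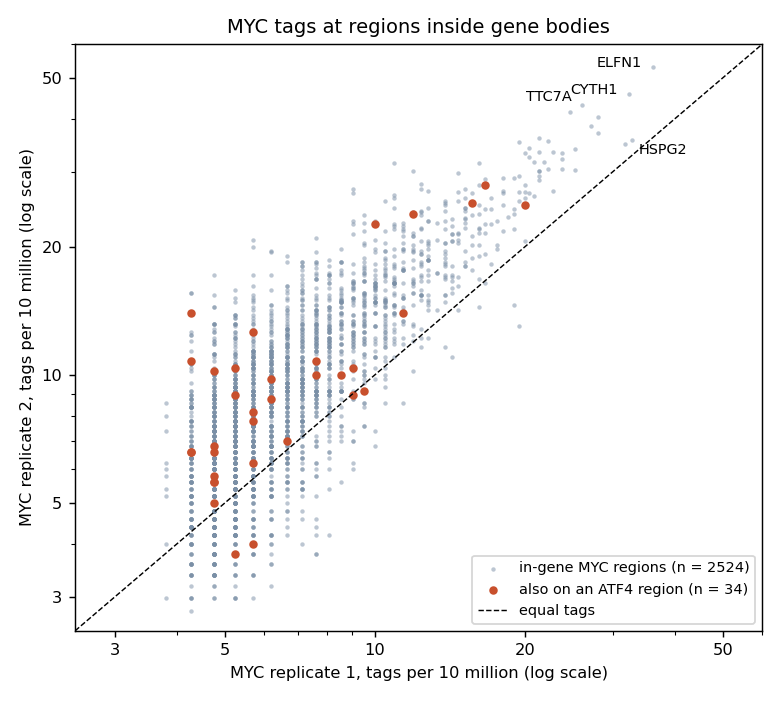
MYC tags per 10 M in replicate 1 (horizontal, log scale) and replicate 2 (vertical, log scale) at the 2524 in-gene MYC regions, each a point, with the 34 that overlap a reproducible activated ATF4 region in red and a dashed line of equal tags. Most points lie above the line, with 83.6% higher in replicate 2, and ELFN1 stands at the top with 36.1 and 53.1 tags.

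The 2 libraries ranked the regions alike (Spearman's rho 0.73 across the 2524 regions, a description, since regions share their libraries). Tags were higher in replicate 2 at 2111 regions (83.6%), with a median ratio of 1.37, and the replicate 2 library is the deeper one. The ratio was highest at CELSR2, a cadherin-type receptor (5.7 and 20.8 tags), LAMB3, a laminin chain of the epithelial basement membrane (4.28 and 15.6), RNPEPL1 (4.28 and 15.6), TSNARE1 (4.75 and 17.2) and RANGAP1, an activator of the RAN GTPase (5.7 and 20). It was lowest at EMP1, an epithelial membrane protein (7.61 and 3.79), EPDR1 (7.61 and 3.79), RGS8 (6.18 and 3.19), AFAP1L2 (8.08 and 4.19) and ANKRD55 (5.7 and 2.99). Thus single in-gene regions differed between libraries of 1 condition by a ratio from 0.498 to 3.65, and differences of that size between weak regions are within the replicate spread. A further 963 in-gene regions had a peak in replicate 1 alone, with a median of 4.75 tags, and 6340 in replicate 2 alone, with a median of 4.19 tags.

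The strongest in-gene region lay in ELFN1, which encodes a synaptic adhesion protein (chr7:1741916-1742177, 36.1 and 53.1 tags in replicates 1 and 2). Its centre was 263.5 bp from the annotated start of ELFN1-AS1, a long noncoding RNA inside the gene. HSPG2, the basement membrane proteoglycan perlecan, had 32.8 and 35.7 tags (chr1:21872015-21872191) at 65207 bp from its start, and KCNG2, a potassium channel subunit, 31.8 and 34.9 (chr18:79817231-79817425). The HSPG2 and KCNG2 regions had no annotated start within 1000 bp, the distance searched. That of CYTH1 described above (chr17:78716995-78717173), 65189 bp from the outer start of the gene, has an inner start beside it.

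LGR6, a receptor for R-spondins, which strengthen Wnt signalling, had 28 and 40.3 tags (chr1:202283580-202283787). MVB12B, a subunit of an endosomal sorting complex, had 28 and 37.1 tags, and MYO18A, an unconventional myosin, 27.1 and 38.5. TTC7A, a scaffold of a lipid kinase complex that intestinal epithelium needs, had 26.1 and 43.1 tags in the strongest of its 6 regions (chr2:47029052-47029228). ATXN10 had 25.2 and 30.3 and HSBP1L1 25.2 and 33.9. In all 10 genes both libraries were above 25 tags, whereas 36 of the 2524 regions reached 20 tags in replicate 1 and 160 in replicate 2. The weakest regions by the lower of both values lay in TTC28 (4.28 and 2.79 tags), in MMP24-AS1-EDEM2 and PROCR, whose spans overlap (5.23 and 2.99), in ALOX5 (4.75 and 2.99), ANKRD55 (5.7 and 2.99) and EHBP1L1 (4.28 and 2.99).

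The regions nearest to the limit of 1000 bp from a gene end were as follows. Just inside it lay regions in MACROD1 (1000.5 bp, 7.61 and 9.18 tags), RPL7 (1004 bp, 16.2 and 22.2) and MRPL24 (1006 bp from the end of HDGF, 10.5 and 17.4). Just outside it lay regions in TSPAN1 (998 bp from the end of POMGNT1, 6.18 and 7.98 tags), BDKRB2 (997.5 bp, 6.65 and 7.38) and GJB2 (995 bp, 7.13 and 10.8).

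The in-gene regions fell into 1904 of 19866 protein-coding genes, 9.58% of all and 10.2% of the 18646 genes longer than 2000 bp, the only ones that can hold such a region. At 8-fold or more over background in both lists the number of host genes was 1229, and with replicate 2 alone 4832. A host held 1 region in 1452 genes, 2 in 316 and at least 3 in 136. In 2469 regions there was a single host, and 55 lay in several overlapping spans, up to 15. Hosts were long, with a median span of 83.6 kb against 24.5 kb for all genes. When genes were split into 4 equal groups by span, 1.21% of the shortest, 4.93%, 10.3% and 21.9% of the longest were hosts. Per Mb of whole gene span the groups held 2.98, 3.50, 3 and 1.66 regions. Whole spans include the outer 1000 bp at each end, which cannot hold such a region and make up most in short genes. The densities of the shorter groups are therefore too low for the DNA that could hold a region. A MYC region at an end was found for 206 of the 1904 hosts (10.8%) and for 10.6% of the other genes longer than 2000 bp. A region at an end was thus about as frequent in hosts as in other genes of that length.

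GSE1, a subunit of a histone deacetylase and demethylase complex, held the most, 12 regions over 506.7 kb, with 4.28 to 21.4 tags in replicate 1 and 5.19 to 28.7 in replicate 2. SH3BP4, a regulator of endocytosis and amino acid signalling, held 7 in 103.7 kb (5.7 to 10.5 and 6.99 to 17.2 tags), a density of 67.5 per Mb. RANBP2, a nuclear pore protein, held 8, but the annotated span of that gene is 1122.8 kb and crosses other genes, and the density was 7.13 per Mb. Genes with 6 regions were BCAR3, an adaptor of integrin signalling, CUEDC1, DHRSX, IQSEC1, MSI2, an RNA-binding protein of stem cells, and TTC7A. Their regions ranged from 4.28 to 26.1 tags in replicate 1. Neighbouring regions in 1 gene were a median of 21458 bp apart, and 137 of 658 neighbouring pairs (20.8%) were closer than 5000 bp.

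The predicted gene LOC124905135 on chromosome 22 held 9 regions in 69.28 kb, a density of 129.9 per Mb. Its span contains MIRLET7BHG (chr22:46085997-46113928), the host transcript of let-7a-3 and let-7b, microRNAs that hold back growth genes and that are known to be lowered by MYC in other cells. The mature 5′ arms, from RefSeq, are printed to show their shared seed, bases 2 to 8 in capitals.
hsa-let-7a-5p: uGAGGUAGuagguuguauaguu
hsa-let-7b-5p: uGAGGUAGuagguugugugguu

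The region nearest to the start of MIRLET7BHG was centred 0.7 kb before it (chr22:46085206-46085389) and had 12.8 tags in replicate 1 and 23 in replicate 2, the highest of the 9 in both libraries. Another lay 1.37 kb before the start with 10.5 and 12.6 tags. A region inside the transcript (chr22:46102874-46103052), 9.79 kb before the hairpin of let-7a-3 and 10.7 kb before that of let-7b, had 9.51 and 22.8 tags. The other 6 lay 7.17 to 37.55 kb before the start with 6.18 to 8.56 tags in replicate 1 and 8.18 to 17.2 in replicate 2. These regions count as in-gene because of the predicted gene, since MIRLET7BHG is noncoding and its end was not used as a gene end.

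Hairpins of 10 other microRNAs lay within 1000 bp of the centre of an in-gene region, among them MIR196B inside the readthrough gene HOXA10-HOXA9 (230.5 bp, 5.7 and 7.38 tags) and MIR615 inside HOXC4 and HOXC5 (352.5 bp, 4.75 and 5.99 tags). Both hairpins lie in HOX clusters, and both regions were below the medians of the in-gene regions. Mature arms of both are printed with their seeds in capitals, since the 2 loci do not share a seed.
hsa-miR-196b-5p: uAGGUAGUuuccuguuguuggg
hsa-miR-615-3p: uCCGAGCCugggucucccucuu

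**Figure D3:**
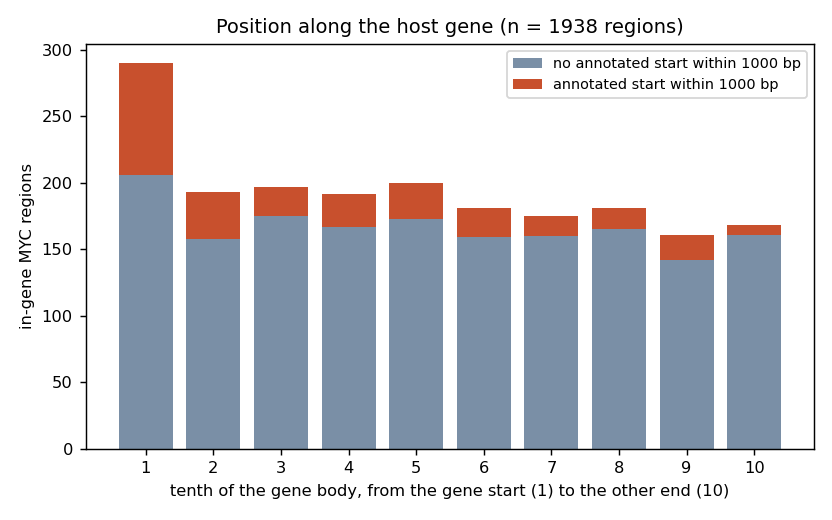
Number of in-gene MYC regions in each of 10 equal parts of the host gene body, from the gene start to the other end, for the 1938 regions with 1 host gene of known strand, the outer 1000 bp at each end being left out. Red marks regions with an annotated start within 1000 bp, and the part nearest the gene start holds 290 regions against 161 to 200 in the others.

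Along the gene the regions were spread, with more near the start. Of the 1938 regions in a single host with a known strand, 290 (14.96%) lay in the part nearest the gene start when the body was cut into 10 equal parts, and the other 9 parts held 8.31 to 10.3% each. Regions with an annotated start within 1000 bp made up 84 of those 290, and without such regions that part held 12.4%. Within 2000 bp of the gene start lay 134 regions and within 2000 bp of the other end 26, and away from annotated inner starts the numbers were 72 and 24. Tags were alike along the gene, with medians of 5.7 to 6.18 in replicate 1 and 7.98 to 9.18 in replicate 2 over the 10 parts.

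The share of genes with an in-gene region differed between functional gene lists, to be read against 9.58% of all genes and, for gene ends, 10.2%. Long genes were more often hosts, as given above, so the median span stands beside the largest shares. The shares are descriptions, and no list was tested.

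Epithelial junction and adhesion genes had the largest share, 13 of 29 (44.8%, median span 58.3 kb), while 3 of 29 had a region at an end. CTNND1, the p120 catenin that stabilises cadherins, had 12.8 and 18.6 tags in replicates 1 and 2, and TJP1, the tight junction scaffold ZO-1, held 3 regions, the strongest with 12.4 and 17 tags. PKP3, a desmosomal plakophilin, had 9.98 and 19.4, and CDH1, E-cadherin, 9.51 and 12.6. At JUP, plakoglobin, the fold over background was 2.06 and 1.66, among the lowest of the in-gene regions, whereas TJP1 reached 53.5 and 36.7.

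Amino acid carriers had a region inside in 10 of 23 genes (43.5%, median span 37.3 kb) and at an end in 5. SLC7A8 held 2, with 15.2 and 23.4 tags in 1 and 11.9 and 16.4 in the one centred 159 bp before its inner start. SLC6A9, a glycine carrier, had 9.03 and 12.4 tags, SLC43A2, which carries branched-chain amino acids and others, 8.08 and 8.98, and SLC25A22, a mitochondrial glutamate carrier, 7.61 and 17.8. SLC7A5, SLC3A2 and SLC43A1, which are described below with ATF4, had 4.28 to 7.61 tags in replicate 1.

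Corepressors and chromatin enzymes had a region inside in 14 of 36 genes (38.9%, median span 99.1 kb), with 27 regions in all. The histone demethylase KDM4B had 13.8 and 19.2 tags, the demethylase KDM6B 10.9 and 16.4, and SMARCA4, the ATPase BRG1 of a chromatin remodeller, 9.98 and 16.4. HDAC4, a class II histone deacetylase, held 3 regions, the strongest with 9.98 and 13.

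Wnt pathway and intestinal stem cell genes had a region inside in 8 of 33 (24.2%, median span 65.0 kb) and at an end in 2. ZNRF3 and RNF43, membrane ligases that remove the Wnt receptor and so restrain the pathway, held 5 and 4 regions. The strongest in ZNRF3 (chr22:28907425-28907604) had 12.4 and 22.2 tags and the strongest in RNF43 8.08 and 12.2. LRP5, a Wnt co-receptor, had 9.51 and 18.8, LEF1, a transcription factor at the end of the pathway, 8.56 and 14, and LGR5, the stem cell receptor for R-spondins, 4.75 and 5.39. Intestinal epithelial transcription factors had a region inside in 6 of 23 (26.1%, median span 24.0 kb). GRHL2, a factor of epithelial identity, held 4 with up to 14.3 and 23.2 tags, and EHF and KLF5 had at most 5.7 tags in replicate 1.

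Circadian clock genes had a region inside in 5 of 21 (23.8%) and at an end in 7, a larger share at ends. NR1D1, the clock repressor REV-ERB alpha, held 2 regions (12.8 and 12.2 tags, and 8.56 and 13.2), RORA, which acts on the same sites, held 4, the strongest by its lower value with 7.13 and 12.4, and NPAS2, CSNK1D and TEF had 4.28 to 6.18 in replicate 1. In the MYC network, MAX, the obligate partner of MYC, had a region inside (chr14:65070563-65070790) with 23.8 and 33.3 tags, 32018 bp from its start. MXI1, a repressor that competes for MAX, had one with 14.7 and 21.4 tags (chr10:110211130-110211306). These were 2 of 15 genes of that list, and 3 had a region at an end.

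In the signalling lists the shares were nearer to that of all genes than in most lists above, but the lists differ in gene length. The median span was 28.35 kb for receptor tyrosine kinases and ERK feedback genes, in the span group with 10.3% hosts. It was 79.5 kb for TGF-beta and BMP signalling genes, in the group with 21.9% hosts. Receptor tyrosine kinases and ERK feedback genes had 5 of 30 (16.7%), with SPRED2, a brake on the pathway, at 13.3 and 20.8 tags in the strongest of 4 regions, IRS1 at 11.4 and 16.4, FGFR2 at 10.5 and 14.6 and EGFR at 7.13 and 18.4. TGF-beta and BMP signalling genes had 5 of 28 (17.9%), with the receptor TGFBR2 at 8.56 and 14.4, TGIF1 at 8.08 and 12.8, the signal carrier SMAD3 at 6.18 and 10.4 and TGFBR3 at 5.7 and 6.39.

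The list of ribosome production stood out by regions at gene ends. Of 34 genes of nucleolar ribosome biogenesis (median span 24.6 kb) 22 (64.7%) had a region at an end, against 10.2% of all genes. Inside the body 2 (5.88%) had one, a small count not far from the 9.58% of all genes. The 2 were PES1 (9.03 and 23 tags) and NPM1 (9.03 and 21.4), the latter 1551 bp from a gene end. Both lay near an inner start of the gene itself, centred 88 bp after one at PES1 and 818 bp after one at NPM1. Translation initiation factors had 3 of 29 inside (10.3%) and 13 at an end (44.8%), with EIF4EBP1, which holds back cap-dependent translation, at 12.4 and 18.4 tags, EIF5A at 7.61 and 12 and EIF3H at 7.13 and 5.99. Nucleotide synthesis genes had 4 of 24 inside (16.7%) and 5 at an end. PFAS of purine synthesis had 13.8 and 25.7 tags and CTPS1 of CTP synthesis 10.5 and 12.2, while RRM2, a subunit of ribonucleotide reductase, had 4.75 and 5.39 at 1.87 and 1.94 times background.

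**Figure D4:**
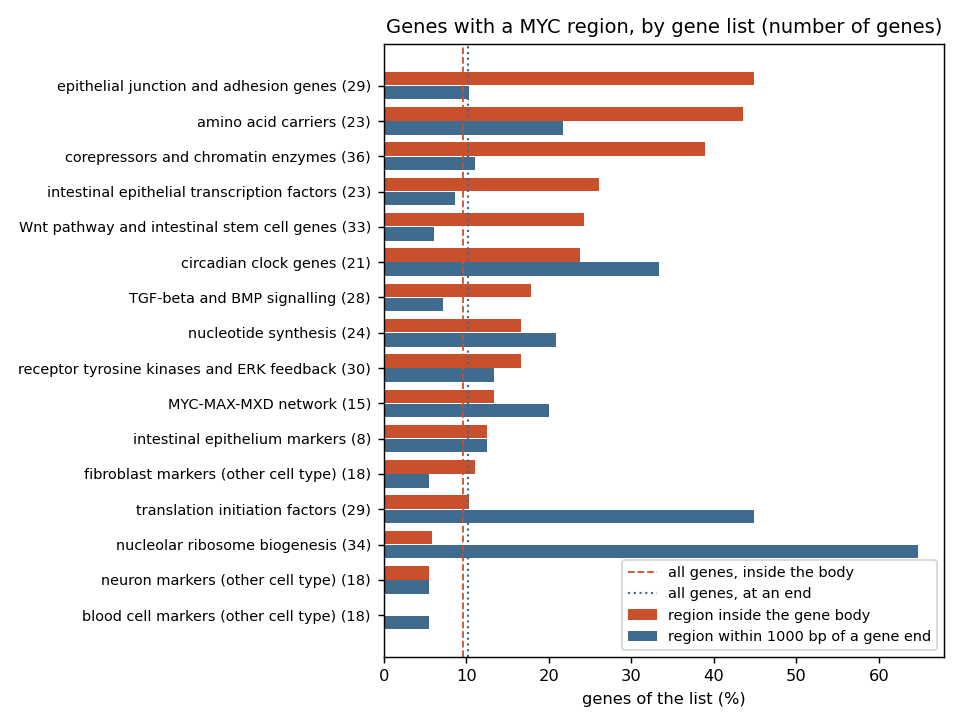
Share of the genes of each list, in percent, with a reproducible MYC region inside the body (red) and with one within 1000 bp of an end (blue), with the number of genes in parentheses and the shares of all genes as vertical lines. Ribosome biogenesis stands at 5.88% inside and 64.7% at ends, and junction genes at 44.8 and 10.3%.

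ATF4, a factor of the integrated stress response that turns on genes of amino acid supply, was found at a small share of these regions. Of the 2524 in-gene MYC regions, 34 (1.35%, exact interval 0.935 to 1.88%) overlapped an ATF4 region that was present in both activated libraries, against 1.03% of all reproducible MYC regions. The share was 0.513% (0.235 to 0.971%) at gene ends and 1.08% (0.679 to 1.63%) outside genes. Read from the other list, 34 of 352 reproducible activated ATF4 regions (9.66%, 6.78 to 13.2%) lay on an in-gene MYC region. ATF4 regions present in both control libraries were met by 15 in-gene MYC regions (0.594%), against 0.412% of all. Single libraries gave 21 in each control and 37 and 50 in the activated replicates 1 and 2, and activated lists were also longer. Against 34 overlaps, 16 were counted with MYC peaks of 8-fold or more over background (1.10% of the in-gene regions then kept), and MYC replicate 2 alone gave 67, a lower share of 0.756%.

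The centres of both factors lay at most 142 bp apart in the 34 regions, with a median of 60 bp. MYC levels there were like those of the other in-gene regions, with medians of 5.7 and 9.08 tags against 6.18 and 8.78. The ATF4 signal in control cells was present in both libraries at 14 of the 34, in 1 library at 10 and in none at 10. Among the 34, the MYC signal was highest at CDC42EP1, an effector of the CDC42 GTPase (20 and 25.1 MYC tags), where ATF4 had 5.61 and 4.42 tags after activation, and was also high at COL4A2, a collagen of the basement membrane (15.7 and 25.3 against 6.01 and 7.64). At both genes MYC tags were well above ATF4 tags in both replicates, on scales of 2 antibodies that are not comparable in level.

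SLC43A1 is a leucine carrier of the same family as SLC43A2. Its region (chr11:57493562-57493738) had 39.7 and 32.6 ATF4 tags after activation (replicates 1 and 2), 29 and 16.3 in the control cells, and 4.75 and 10.2 MYC tags. SLC7A5, the carrier LAT1 (chr16:87853706-87853882), had 33.3 and 28.3 ATF4 tags after activation, 23.7 and 15.9 in control, and 4.28 and 6.59 MYC tags. Both genes were higher in both activated libraries than in both controls. Their MYC tags were below the in-gene median in both replicates at SLC7A5, and below it in replicate 1 and above it in replicate 2 at SLC43A1. SLC3A2, the heavy chain that brings LAT1 to the membrane, had 6.81 and 10.4 ATF4 tags after activation, a peak of 9.82 in control replicate 1 and none in control replicate 2. LRRC59, a ribosome-binding membrane protein, had 10.8 and 14.1 after activation and 12.1 in control replicate 1 alone, and POFUT1, an enzyme that fucosylates NOTCH, 12 and 12.1 after activation and 5.96 in control replicate 2 alone. These 3 could not enter the test, which needs a peak in every library.

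A comparison of ATF4 with and without MYC activation was possible at the 105 regions where every ATF4 library had a peak, of which 14 lay on an in-gene MYC region. By limma on log2(tags + 1) with Benjamini-Hochberg adjustment over the 105 regions, 8 of the 14 were higher after activation and 0 were lower, at a threshold of 0.05, while 37.1% of all 105 were higher (39) and 0 were lower. Without adjustment 11 of the 14 and 57 of the 105 were higher at p under 0.05. The median difference was 0.70 (log2) over the 14 and 0.54 over the 105, which include the 14. Of the 12 ATF4 regions on other MYC regions, 1 was higher (8.33%, adjusted), with a median difference of 0.42. Of the 34 inside a gene body on no MYC region, 12 were higher (35.3%), with a median of 0.49. Whether MYC binding bears on the ATF4 difference was not tested. Both activated libraries stood above both controls at 13 of the 14, against 73.3% of all 105. Within replicate 1 the median difference was 0.44 over the 14 and 0.37 over all, and within replicate 2 it was 0.86 and 0.74.

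TBC1D16, a regulator of RAB GTPases, had 33.7 and 34.4 ATF4 tags in the activated libraries and 21.4 and 17.1 in the controls, replicate 1 before replicate 2 (34.1 ± 0.495 against 19.3 ± 3.04, SD, n = 2 each). The difference was 0.80 (log2, SE 0.32, limma adjusted p = 0.0408), and the 2 groups did not overlap. ATXN1, a transcriptional repressor, had 16 and 13.9 tags against 8.04 and 6.16 (0.98, SE 0.29, limma adjusted p = 0.00914), the largest difference of the 14. EEIG1 had 12.8 and 13.5 against 5.36 and 7.16 (0.97, SE 0.29, limma adjusted p = 0.00985). Groups did not overlap at either gene.

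OXR1, which protects cells from oxidative damage, had 18.4 and 11.5 tags against 8.93 and 7.75 (0.74, SE 0.29, limma adjusted p = 0.0397). SH3BP2, a signalling adaptor, had 7.62 and 10.4 against 5.36 and 4.57, RAD51B of DNA repair 10.4 and 12.7 against 8.48 and 5.17, RANBP2 7.22 and 7.43 against 5.36 and 4.17, and CEP112, a centrosomal protein, 10.8 and 13.5 against 7.59 and 6.56, with limma adjusted p from 0.0211 to 0.0489. At all 4 the groups did not overlap. The region named by RANBP2 (chr2:109126541-109126717) lay 407147 bp from the annotated start of that gene and 2576 bp from an end of SH3RF3. The test was not passed at SLC43A1 (0.70, SE 0.32, limma adjusted p = 0.0721), SLC7A5 (0.63, SE 0.31, limma adjusted p = 0.0865), DLGAP1 (6.81 and 8.44 against 5.36 and 4.97 tags), EIF4EBP1 (12 and 19.7 against 10.7 and 10.1) and PEBP4 (7.62 and 7.64 against 5.36 and 6.16), whose groups did not overlap, nor at GNG7 (5.61 and 11.5 against 8.04 and 7.16), whose groups did.

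The differences kept their direction in ATXN1 and EEIG1 when any 1 ATF4 library was left out (0.82 to 1.15 and 0.79 to 1.15, log2), but 0 of the 14 and 0 of the 105 then passed limma's threshold, in fits where 1 group is a single library and the other alone gives the spread. The other regions that had passed kept their direction in these fits too, and of the 14 only GNG7 changed sign, without activated replicate 2. The replicate 1 libraries of ATF4 held 22.4 and 24.95 M tags and the replicate 2 libraries 50.3 and 49.77 M. With the replicate number as a term (a replicate block) 0 of the 14 and 0 of the 105 passed, with a smallest limma adjusted p of 0.115. Subtracting from each library the median of its own 105 values, which moves the median difference by -0.64, left 0 of the 14 higher and 0 lower and 0 of the 105 higher and 9 lower. The inducer was given with MYC activation in every activated sample, so the 2 cannot be told apart.

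**Figure D5:**
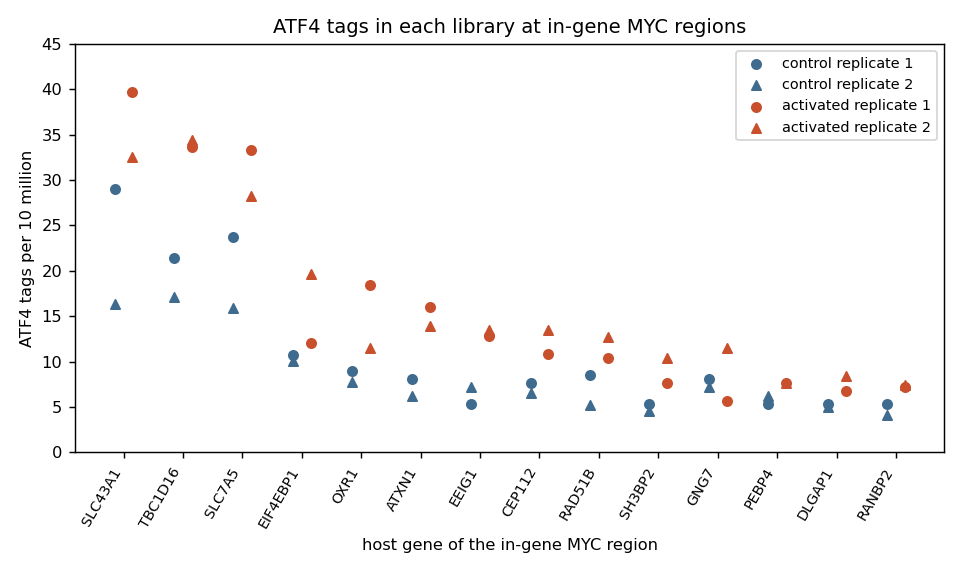
ATF4 tags per 10 M in each of the 4 ATF4 libraries at the 14 in-gene MYC regions with an ATF4 peak in all of them, ordered by the activated mean. Blue marks control and red activated libraries, and in every region but GNG7 both red marks stand above both blue ones.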

How the data were processed

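ChIP-seq peak lists of MYC in 2 samples and of ATF4 in 4 samples of DLD-1 MycER cells were used, 1 list per library. The submitters' processing notes name Bowtie 0.12.9, HOMER and the build hg38, and aligner and peak-finder settings are not given in the sources used here. The deposited lists give a signal per peak, the normalized tag count per 10 M tags, which is the value reported. They also hold a ratio or fold over a background library and over the surrounding sequence, a focus ratio as a fraction, a findPeaks score and a p-value per peak, as deposited by the authors. Whole tag counts per peak were deposited for replicate 1 of each group alone, so no count test was made and limma was used.

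Peaks were merged with an overlap of at least 1 bp and placed by their centre against protein-coding spans of RefSeq (GRCh38.p14). In the gene table, 171 protein-coding entries of other scaffolds were left out and 19866 kept. No genome of the build was used, so the planned E-box search around each region's centre was replaced by a search of CACGTG in RefSeq windows of 300 bases at annotated starts. ATF4 tags were compared by limma 3.58.1 (R 4.3.3) with a mean-variance trend on log2(tags + 1), without a replicate block, with Benjamini-Hochberg adjustment over the 105 regions with a peak in all 4 libraries. That step was tested on simulated data with independent noise, no shift between libraries and effects larger than any at the in-gene regions. That test does not show how the fit behaves on these data. Other values were computed in Python 3.11.15 with pandas 2.3.3, NumPy 2.4.6 and SciPy 1.17.1. Shares have exact Clopper-Pearson 95% intervals, which cover counting error only.

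The members and gene lists were chosen with earlier results of these data known. Named were the 10 strongest and 5 weakest regions by the lower value, the genes with most regions, the ATF4 overlaps, the regions nearest the 1000 bp limit, the 5 highest and 5 lowest ratios between libraries, and up to 4 members of each list. CDH1, JUP, HDAC4, LGR5, TEF, the let-7 locus and the printed starts were named after their values were seen. Overlap, fold, end distance, centre, pseudocount, filter, scaling, replicate block and left-out libraries were varied. Some results for single genes are not reported here.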

Additional observations from a re-analysis of the deposited data

How the results depend on the processing

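The ATF4 comparison depended most on the processing. With a replicate block in the fit, 0 of the 14 in-gene regions and 0 of the 105 regions passed (smallest limma adjusted p = 0.115), against 8 and 39 without it, with 7 and 37 higher at an unadjusted p under 0.05. Deviations of libraries with the same number had a correlation of 0.0976 over the 105 regions, and with 2 pairs the numbers were not taken to pair the samples. Centring each library left 0 of the 14 and 0 of the 105 higher. The RANBP2 region, which had passed without centring, changed sign (-0.11). Regions that had not passed changed sign too, at SLC7A5 (-0.011), DLGAP1 (-0.17), EIF4EBP1 (-0.12), PEBP4 (-0.29) and GNG7 (-0.56). Leaving out 1 ATF4 library gave 0 to 0 higher for both counts, with 1 group then a single library assumed to vary like the other. A pseudocount of 0.1 gave 8 and 39, and a mean of at least 5 tags 7 and 38. Of the values of single regions under these alternatives, 63 kept their side of the threshold and 48 lost it. The remaining 1, RANBP2 on centring, lost it with a change of sign. Sign changes of regions that had not passed are among the 63, also that of GNG7 without activated replicate 2 (-0.38). A fold of at least 8 over background gave 1452 in-gene regions, 1229 genes and 16 overlaps with ATF4. Leaving out 1 MYC library gave 3488 to 8867 regions, 2417 to 4832 genes and 32 to 67 overlaps. The other alternatives gave 1972 to 2529 regions and 27 to 34 overlaps, and leaving out 1 activated ATF4 library 37 to 50. The share of windows with an E-box was 50.6% when CACGCG and CGCGTG were also counted (12.5% in windows without a MYC region) and 22.1 to 38.1% otherwise. The in-gene minus gene-end median stayed between -0.17 and 0. Alternatives chosen after seeing the data were the scaffold genes (2527 regions), inner starts taken as gene ends (2264), a floor at the lowest tags of replicate 1 (2440) and those of the start windows. The planned E-box alternatives around region centres were not run, since no genome was used. Where the cause of a change is not the smaller number of samples or peaks, the cause was not tested. The weakest MYC peak of replicate 1 held 8 tags before scaling and that of replicate 2 an estimated 12, so weak regions rest on few tags.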
